A study of Homo sapiens with 8 samples.

Results

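The comparison set 3 arrays of SUM159, a basal-like breast cancer cell line, against 3 arrays of HMLE, a line of human mammary epithelial cells, out of 8 arrays in all. Members were chosen by the array titles alone: SUM159 without a transgene, SUM159 stably transfected with LacZ and SUM159 stably transfected with IRX5 on one side, and HMLE stably transfected with LacZ, with Gcnt2 or with Foxq1 on the other. LacZ, the bacterial beta-galactosidase gene, was the control in both lines, IRX5 is an Iroquois homeobox transcription factor, Gcnt2 is a glycosyltransferase and Foxq1 is a forkhead transcription factor. The other 2 arrays hold SUM1315 and MDA-MB231, also basal-like lines. Total RNA was measured on Illumina bead arrays, and the deposited values are linear, normalized intensities. The study's stated aims were to find genes downstream of Foxq1 and IRX5 and to compare basal-like lines.

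Each side was treated as 1 line with variants, so the spread between 3 arrays includes the effect of the transgenes. All HMLE arrays carry a transgene, while 1 SUM159 array does not. HMLE cells were made by immortalizing mammary epithelial cells with telomerase and SV40 large T antigen, which binds p53 and the retinoblastoma protein, and all 3 HMLE arrays share that background. The labels do not say whether the arrays came from separate cultures or whether a transfected line is 1 clone. The p-values below therefore measure the spread between these arrays, and the comparison is of 2 lines, not of tumours with normal tissue.

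Mammary epithelium has an inner luminal layer, marked by keratins 8 and 18, and an outer basal layer, marked by keratins 5 and 14, P-cadherin and the hemidesmosome that fastens the cell to its basement membrane. Epithelial cells hold together through E-cadherin, desmosomes and tight junctions. In epithelial-mesenchymal transition (EMT), factors such as ZEB1 bind E-box sequences in promoters of junction genes and lower their transcription, and the cells take on vimentin, N-cadherin and a fibroblast-like matrix.

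Each gene was represented by the brightest of its named probes, averaged over the 8 arrays, and was tested where at least 3 of the 6 arrays lay above a detection limit of 144.6, set from the spread of dim probes. It was called where the adjusted p of limma's test (Benjamini-Hochberg over all 10642 genes tested) was under 0.05, the mean difference was at least 2-fold and the 3 arrays of one line all lay on one side of the other 3. Folds are ratios of mean log2 intensities without background subtraction. Where all 3 arrays of the dim line lay under the limit, a fold is written as "at least", with those arrays set at the limit. Where only some of the dim arrays lay under it, the measured fold is given, which rests in part on background, and setting those arrays at the limit lowered the fold of each named gene by less than 1.5 times. Fits without 1 array tested genes above the limit in 2 of the other 5. Values are given in the order untransfected, LacZ and IRX5 for SUM159, and LacZ, Gcnt2 and Foxq1 for HMLE.

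The introduced genes were checked first. A GCNT2 probe read 9104 in HMLE/Gcnt2 and between 89.1 and 125.1 in the other 5 arrays. The FOXQ1 probe was not raised in the third HMLE array. It read 1641, 1378 and 299.2 in HMLE, so that the array labelled Foxq1 was the lowest, and 1111, 2518 and 1568 in SUM159. The IRX5 probe read 151 in the array labelled IRX5 and 162.7 and 164.8 in the other SUM159 arrays. The sources do not give the species or extent of the constructs, and a probe outside a construct checks nothing. One array stood apart within its line. Of the 10642 genes tested, 1112 (10.4%) lay at least 2-fold apart between the array labelled Foxq1 and HMLE/LacZ, against 89 (0.836%) between HMLE/Gcnt2 and HMLE/LacZ and 277 to 604 between pairs of SUM159 arrays. Pairs that cross the lines differed in 1410 to 2280 genes. Between 10145 and 10486 genes per array lay above the detection limit. Counts of list members that move by over 1.5 times and by more than 1 member without the array labelled Foxq1 are given with and without it, and a few small counts moved by 1.

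Among the genes with the largest differences were keratins and other squamous and basal epithelial genes, far lower in SUM159, and several cancer-testis genes, higher in SUM159. In all, 481 genes were called higher in SUM159 (4.52% of those tested) and 724 lower (6.80%). The arrays of the lines did not overlap in 40.2% of genes tested. A further 743 genes passed the test with no overlap but differed by less than 2-fold, and 1 gene passed with overlapping arrays. Differences of at least 8-fold were found for 43 genes higher and 98 genes lower in SUM159. The median difference of all genes tested was 0.03 on the log2 scale. In 85 of the higher genes all 3 HMLE arrays, and in 211 of the lower genes all 3 SUM159 arrays, lay under the detection limit, so only a bound is known there. Just inside the fold threshold lay SLC9B2 and KMT2E, at 1.0 on the log2 scale, and just outside it IQGAP1, at -0.999. Without the array labelled Foxq1, 694 genes were called higher and 848 lower, and these include 448 of the 481 and 662 of the 724. Leaving out SUM159/LacZ gave 289 higher and 434 lower, leaving out HMLE/LacZ 309 higher, leaving out HMLE/Gcnt2 314 higher and leaving out the array labelled IRX5 457 lower. Of the 179 called genes named in this report, 121 stayed called whichever array was left out. The 179 were picked largely for the size of their difference, so this share does not describe all calls. The losses among the other 58 are given where those genes are described.

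**Figure D1:**
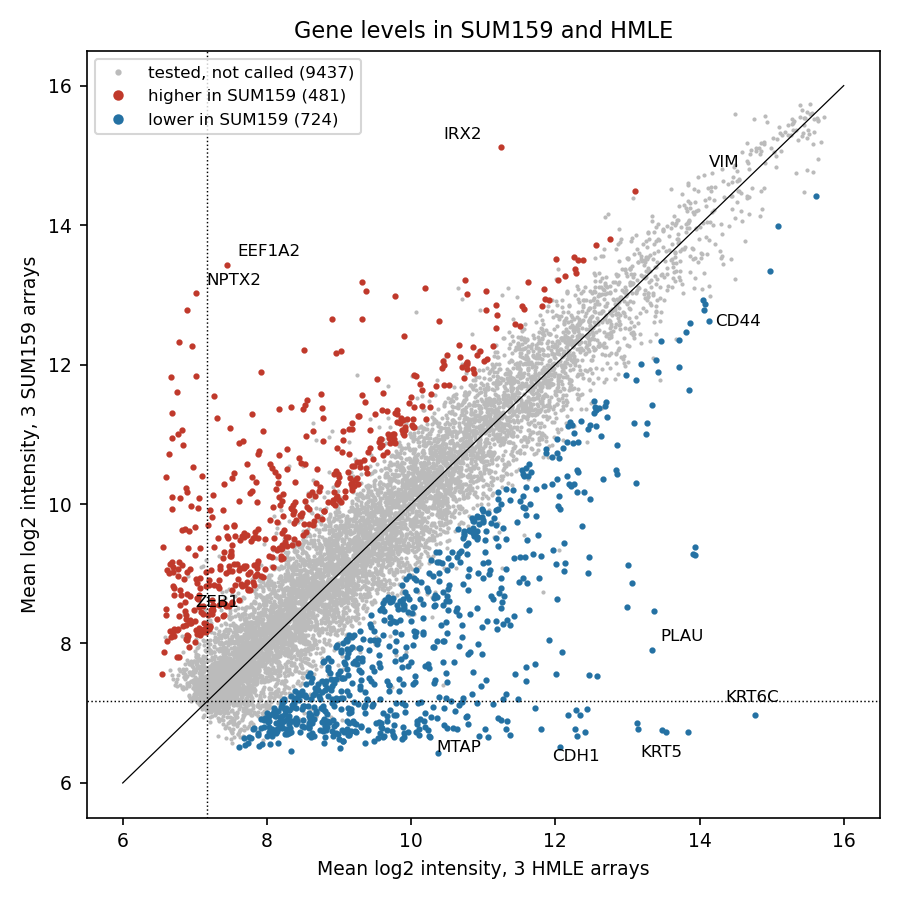
Mean log2 intensity of each tested gene over the 3 HMLE arrays (x axis) and the 3 SUM159 arrays (y axis), with genes called higher in SUM159 in red (481), called lower in blue (724) and not called in grey. Dotted lines mark the detection limit of 144.6. The strip of blue points along the bottom holds genes such as CDH1 and KRT5 that lay under the limit in every SUM159 array.

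The 15 genes with the largest difference upward were 63.9- to 16.1-fold higher in SUM159. NPTX2, a secreted neuronal pentraxin, read 6803, 8453 and 9982 in SUM159 and 108.1, 108.9 and 186.4 in HMLE, where only the array labelled Foxq1 passed the detection limit. The measured log2 difference was 6.0 ± 0.28 (SE, 3 arrays a line, adjusted p = 6.25e-05 by limma), and the fold was 52.8 with the other HMLE arrays set at the limit. EEF1A2, the tissue-restricted form of translation elongation factor 1 alpha, read 7877, 14480 and 11860 against 227.8, 154.7 and 149.5, a 63.6-fold difference (adjusted p = 6.25e-05). All 3 HMLE arrays passed the limit for EEF1A2, and no SUM159 array came near an HMLE array for either gene. ADGRF5, an adhesion G protein-coupled receptor, read 3918 to 6165 in SUM159 and 110.3 to 145.3 in HMLE, where 1 array lay just above the limit, and was 34-fold higher with the other HMLE arrays set at it. LIMCH1, an activator of non-muscle myosin II, was 25.1-fold higher on the same footing. CYBA, the membrane subunit shared by NADPH oxidases, was 16.6-fold higher on that footing and read 115.2, 112.5 and 283.5 in HMLE. WDR72, known for its part in enamel formation, was at least 17.6-fold higher. FMN2, an actin nucleator of the formin family, was at least 14.2-fold higher, EPB41L3, a membrane-cytoskeleton adaptor of the protein 4.1 family, at least 11.7-fold, and EGFLAM, the matrix protein pikachurin, at least 12.7-fold. The other 6 of the 15 were the germline genes XAGE2, PAGE5, PAGE2, PAGE2B and SPANXD and the embryonic globin HBE1, described below. In 10 of the 15 all HMLE arrays lay under the limit.

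At the other end, the 15 genes with the largest difference downward were 221- to 36.6-fold lower in SUM159 as measured. Keratins, cadherins and secreted proteases were among them, and 12 of the 15 lay under the limit in every SUM159 array. KRT6C, a keratin of stressed and squamous epithelium, read 100.7, 141.3 and 140.7 in SUM159 and 33400, 44870 and 14390 in HMLE, at least 193-fold lower (adjusted p = 6.71e-05). Its sequence is close to that of other keratin 6 genes, so the probe may read them too. FGFBP1, a secreted carrier that frees fibroblast growth factors from the matrix, read 99.99 to 116.1 against 15310, 13070 and 7550, at least 79.4-fold lower. ADIRF, an adipogenesis factor by name, was at least 62.1-fold lower, MALL, a membrane-raft protein of epithelial cells, at least 37.8-fold, LAD1, a basement membrane protein, at least 35.8-fold, and SOX15, a transcription factor of the SOX family, at least 31.9-fold. GJB2, the gap junction protein connexin 26, read 146, 116.9 and 136.5 in SUM159, with 1 array just above the limit, and 4392, 7225 and 3985 in HMLE, 34.6-fold lower with the other SUM159 arrays set at the limit. In each of these 7 genes every HMLE array was far brighter than any SUM159 array.

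**Figure D2:**
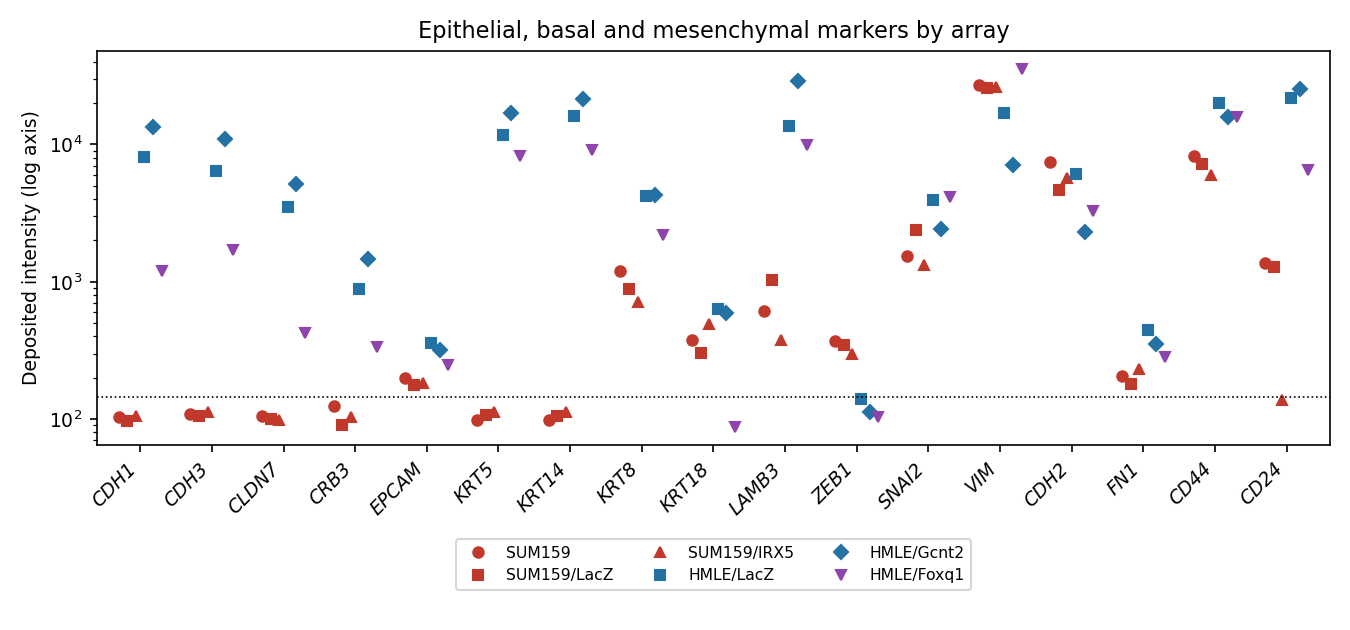
Deposited intensity (log axis) of 17 epithelial, basal, mesenchymal and CD44/CD24 marker genes in each of the 6 arrays, SUM159 in red and HMLE in blue, with the array labelled Foxq1 in purple and the detection limit as a dotted line. CDH1, CDH3, CLDN7, CRB3, KRT5 and KRT14 lay under the limit in all SUM159 arrays, and VIM and CDH2 overlapped between the lines.

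Genes of epithelial adhesion and junctions were lower in SUM159. Of 36 list members on the array 30 were tested, 21 were called lower and none higher, against a background of 6.80% lower among all genes tested. In 17 of the 30 one line lay wholly under the limit, so these passed the filter through HMLE alone and had to differ. The median log2 difference over all 36 was -2.39, against 0.01 over all 16922 genes. CDH1, which encodes E-cadherin, the adherens junction protein of epithelia, read 104.4, 96.5 and 105.4 in SUM159 and 8097, 13300 and 1191 in HMLE. It was at least 34.9-fold lower in SUM159 (log2 difference -5.63 ± 0.80, SE, adjusted p = 0.0041). CDH3, the basal P-cadherin, read 106 to 113.4 against 6423, 10910 and 1718, at least 34.2-fold lower (adjusted p = 0.00154). For both cadherins the array labelled Foxq1 was the lowest HMLE array and still lay above every SUM159 array. SPINT2, an inhibitor of membrane serine proteases, read 129.2, 145.1 and 126.1 in SUM159, with 1 array just above the limit, and was 38.4-fold lower with the others set at it. MAL2, a protein of apical transport, read 94.7 to 112.7 against 5298, 6154 and 562.5, at least 18.2-fold lower. Desmosome genes belonged to the same group: PKP1 (plakophilin 1) was at least 16.8-fold lower, DSC2 (desmocollin 2) at least 12.2-fold and DSG3 (desmoglein 3) at least 10.6-fold, while JUP (plakoglobin) stayed measurable in SUM159 at 380.7 to 916.6 against 4895 to 14480, although another probe put its log2 difference at -1.59. RAB25, a small GTPase of epithelial recycling, was at least 10.9-fold lower. EPCAM was not called: it read 199, 176.3 and 183.1 in SUM159 and 355.9, 317.3 and 249.9 in HMLE, a 1.64-fold difference with no overlap (adjusted p = 0.0294). Without the array labelled Foxq1, 26 members were called lower. Leaving out the array labelled IRX5 gave 11 members lower, leaving out SUM159/LacZ 12 and leaving out HMLE/LacZ 12. DSC2 and DSG3 lost their calls without any 1 of those 3 arrays, with adjusted p up to 0.0614 and 0.0752, and DSG3 also without untransfected SUM159.

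Promoter sequence is shown for the junction genes CRB3, an apical polarity protein, and CLDN7, a tight junction claudin, with the E-box CACCTG marked. CRB3 read 123.8, 90.0 and 104.4 in SUM159 and 882.8, 1469 and 336 in HMLE, at least 5.25-fold lower, and CLDN7 read 98.7 to 106.2 against 3487, 5120 and 421.9, at least 13.6-fold lower (adjusted p = 0.014). The CLDN7 call was lost without the array labelled IRX5, SUM159/LacZ or HMLE/LacZ, with adjusted p up to 0.0632. Each run below is the 250 bases before an annotated start in RefSeq (build GRCh38.p14), written 5′ to 3′ on the strand of the gene, with CACCTG or its reverse complement CAGGTG in capitals. Where a gene has several annotated starts, the one with the most sites is shown.
CRB3 promoter, chr19:6464021-6464270, plus strand: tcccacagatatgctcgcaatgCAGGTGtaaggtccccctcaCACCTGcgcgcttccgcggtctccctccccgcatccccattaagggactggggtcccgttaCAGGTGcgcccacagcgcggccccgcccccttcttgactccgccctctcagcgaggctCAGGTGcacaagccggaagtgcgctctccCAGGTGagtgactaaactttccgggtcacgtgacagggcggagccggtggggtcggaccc
CLDN7 promoter, chr17:7262479-7262728, minus strand: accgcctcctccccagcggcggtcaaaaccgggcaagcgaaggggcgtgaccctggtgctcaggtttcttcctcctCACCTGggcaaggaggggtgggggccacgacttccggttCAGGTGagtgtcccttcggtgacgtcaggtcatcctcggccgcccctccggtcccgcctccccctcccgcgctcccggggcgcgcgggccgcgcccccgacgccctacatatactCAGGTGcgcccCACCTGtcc
The CRB3 window holds 5 such sites and the CLDN7 window 4. Of the 21 junction genes called lower, 12 have an entry in the promoter table, and 7 of those 12 hold at least 1 site in a window (58.3%), as do 20.6% of all 27305 genes with an entry. Counted by annotated start, the shares were 8 of 17 (47.1%) and 17.5% of 35116. The genes with an entry include genes that are not on the array. These are matches of letters, binding was not measured, and a link to ZEB1 was not tested.

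Basal keratins and hemidesmosome genes were lower in SUM159 as well. Of 18 members on the array 17 were tested, 10 (58.8%) were called lower and none higher, beside 6.80% lower among all genes tested. In 5 of the 17 a line lay wholly under the limit, so these passed the filter through the other line alone and had to differ. The median log2 difference over the 18 was -1.97. KRT14 read 99.4, 105.8 and 112.8 in SUM159 and 16140, 21430 and 9157 in HMLE, at least 102-fold lower (log2 difference -7.12 ± 0.31, SE, adjusted p = 5.45e-05). Its partner KRT5 read 98.4, 106.5 and 113.4 against 11760, 16940 and 8303, at least 81.8-fold lower (adjusted p = 5.45e-05). These 2 keratins and CDH3 lay under the detection limit in each of the 3 SUM159 arrays. The basal-layer genes LAMB3 and ITGB4, described below, lay above it in all 3, though lower than in HMLE. Whether SUM159 is basal-like was not tested. KRT15, a keratin of basal progenitors, was at least 17.8-fold lower, KRT16 23.3-fold, with 1 SUM159 array just above the limit and the others set at it, and KRT13, a keratin of stratified epithelium, at least 5.31-fold. LAMB3, a chain of laminin 332 in the basement membrane, stayed well above the limit in SUM159 at 609.3, 1030 and 375.6, and was 25.4-fold lower than its 13600, 28940 and 9872 in HMLE. ITGB4, the hemidesmosome integrin, was 8.12-fold lower, and it varied among the SUM159 arrays from 167.3 to 843.3. Another ITGB4 probe differed by -1.90 on the log2 scale. The calls of ITGB4 and KRT13 were lost without SUM159/LacZ, HMLE/LacZ or HMLE/Gcnt2, with adjusted p up to 0.0764 and 0.147, and that of KRT13 without either other SUM159 array as well. Among luminal keratins, KRT8 was 3.75-fold lower (1200, 882.4 and 714.7 against 4226, 4290 and 2194). KRT18 was not called (303.4 to 495.3 in SUM159 and 637.1, 594.5 and 87.7 in HMLE, adjusted p = 0.834), and the array labelled Foxq1 alone put HMLE on both sides of SUM159. Without that array KRT18 lay 0.68 lower in SUM159 on the log2 scale (adjusted p = 0.0774).

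The squamous barrier list holds secreted kallikreins, cornified-envelope proteins and their inhibitors. Of its 42 members on the array 33 were tested, 26 (78.8%) were called lower and none higher, beside 6.80% lower among all genes tested. In 15 of the 33 a line lay wholly under the limit, so these passed the filter through HMLE alone and had to differ. The median log2 difference over the 42 was -2.28. KLK5, the protease that starts the kallikrein cascade of skin shedding, read 105.3 to 115.4 in SUM159 and 11710, 17760 and 3543 in HMLE, at least 62.5-fold lower (adjusted p = 0.000524). SERPINB5, the serpin maspin, stayed measurable in SUM159 at 1037, 479.7 and 606 and was 23.4-fold lower than in HMLE, at 17130, 24080 and 9335. SFN, the cell cycle protein 14-3-3 sigma of epithelial cells, was 18.4-fold lower. KLK7 read 142.8 to 153.5 against 6360, 8097 and 449.3, and its adjusted p was 0.0251. Without the array labelled Foxq1 the count of members lower was 32, and leaving out any 1 of the other 5 arrays gave 11 to 15.

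The kallikreins form 1 run of neighbouring genes, and the calls covered part of it. This run, like those described next, was singled out after its values were seen. By RefSeq order, KLK5, KLK6, KLK7, KLK8, KLK9, KLK10 and KLK11 lie side by side, and all 7 were called lower in SUM159. On one side of them KLK4 and KLK2 read under 145 in all 6 arrays, so no edge of the change can be read there. On the other, KLK12 read 141.9 to 147.8 in SUM159 and 247.4, 245.7 and 131.2 in HMLE and was not called (adjusted p = 0.23), and KLK13 and KLK14 were not tested. KLK14 read 104.7 to 114.8 in SUM159 and 197.8, 188.3 and 114.1 in HMLE. Without the array labelled Foxq1, KLK12 and KLK14 lay 0.76 and 0.82 lower in SUM159 on the log2 scale. Their adjusted p was then 0.00307 and 0.00126, short of the fold threshold. Of the 16 kallikrein genes on the array 8 were tested and 7 called. In each of the 7 the array labelled Foxq1 was the lowest HMLE array, for example 235.3 for KLK6 against 1304 and 1621, 349.9 for KLK10 against 2416 and 3324, and 176 for KLK11 against 935.9 and 1520. Another KLK6 probe showed no difference (0.0 on the log2 scale). Apart from KLK5, each lost its call without SUM159/LacZ (adjusted p 0.0549 for KLK9 to 0.139 for KLK11), and all but KLK9 also without untransfected SUM159, the array labelled IRX5 or HMLE/LacZ.

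**Figure D3:**
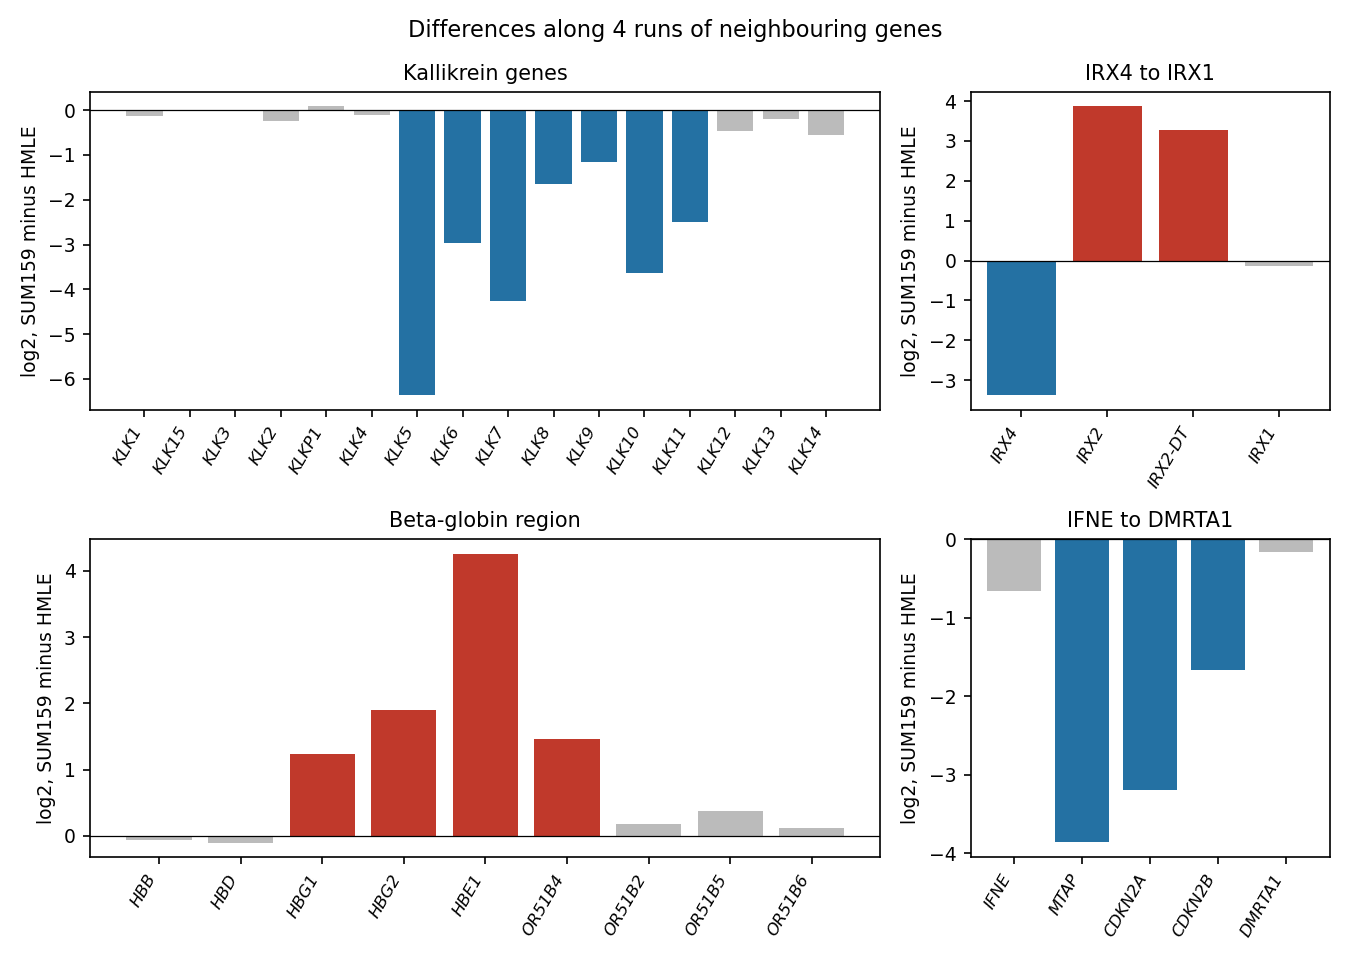
Log2 difference, SUM159 minus HMLE, of the array's genes along 4 runs of neighbours in RefSeq order, with called genes in red (higher) or blue (lower) and the others in grey. KLK5 to KLK11 were all lower, HBG1, HBG2, HBE1 and OR51B4 higher, IRX2 and IRX2-DT higher beside a lower IRX4, and MTAP, CDKN2A and CDKN2B lower.

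Some transcription factors of epithelial identity were lower in SUM159. Of 23 on the array 12 were tested, 5 (41.7%) were called lower and none higher, beside 6.80% lower among all genes tested. SOX9, a factor of mammary progenitors, read 98.1, 231.8 and 117.6 in SUM159 and 1706, 3573 and 702.9 in HMLE, 11.7-fold lower. OVOL2, a repressor of ZEB1, was at least 3.99-fold lower (adjusted p = 0.00325). BNC1, basonuclin of basal keratinocytes, was 3.24-fold lower, and another of its probes differed by only -0.41. For TFAP2A, the factor AP-2 alpha, the probe used was 3.54-fold lower but another probe had the opposite sign (0.12), so its direction is uncertain, and its call was lost without any 1 array but untransfected SUM159 and the array labelled Foxq1 (adjusted p up to 0.0926). Without the array labelled Foxq1, 14 members were called lower, of which 9 were among the 12 tested over all 6 arrays and the others entered through the filter of that fit. GRHL2 and GRHL3, grainyhead factors of epithelial junctions, EHF, an ETS factor of epithelia, and ZNF750, a factor of epidermal differentiation, were not tested with it. EHF read 102.5 to 129 in SUM159 and 832.4, 1200 and 128.3 in HMLE, so only 2 arrays lay above the limit. GRHL2 read 90.2 to 103.7 against 285.2, 380.9 and 136.1. Without that array the adjusted p was 0.000280 for GRHL2, 9.92e-05 for GRHL3, 9.69e-05 for EHF and 0.00291 for ZNF750.

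Of 17 EMT factors on the array 11 were tested, and 4 were called higher in SUM159 with none lower, against a background of 4.52% higher. ZEB1, the E-box repressor, read 373.1, 348.3 and 298.9 in SUM159 and 139.4, 113.1 and 104.4 in HMLE, at least 2.34-fold higher (log2 difference 1.52 ± 0.16, SE, adjusted p = 0.0013). FOXF2, a forkhead factor of mesenchyme, was 3.57-fold higher, LEF1, the WNT-responsive factor, 2.59-fold and TBX2, a T-box repressor, 2.15-fold. For those 3 only 1 HMLE array passed the limit. With the other HMLE arrays set at the limit TBX2 was 1.79-fold higher, and its call was lost without any array but the one labelled Foxq1 (adjusted p up to 0.11). SNAI2, which encodes Slug, pointed the other way, with 1553, 2392 and 1329 in SUM159 and 3932, 2436 and 4135 in HMLE, 2.00-fold lower, and it did not pass (adjusted p = 0.054). ZEB2 read 282.9 to 431.2 in SUM159 and 161.1, 131.5 and 547.5 in HMLE and was not called (adjusted p = 0.423), but without the array labelled Foxq1 its adjusted p was 0.00525. The median log2 difference over the 17 factors was 0.12.

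Most of the mesenchymal list was not called. Of 36 members on the array 31 were tested, and the median log2 difference was -0.20. Of the 31, 1 was called higher in SUM159 (3.23%) and 7 lower (22.6%), beside 4.52% and 6.80% of all genes tested. VIM, the intermediate filament vimentin, was among the brightest genes in both lines, at 27250, 25570 and 26350 in SUM159 and 16940, 7074 and 35640 in HMLE (adjusted p = 0.375). CDH2, N-cadherin, read 7492, 4679 and 5672 against 6067, 2322 and 3301 (adjusted p = 0.212), and both genes overlapped between the lines. FN1, fibronectin, was dim in both, 181 to 229.9 in SUM159 and 284.4 to 443 in HMLE, 1.73-fold lower in SUM159 with an adjusted p of 0.0378, short of the fold threshold. PCOLCE, an enhancer of procollagen processing, was the 1 member higher, at 1241, 1836 and 1569 against 118.1, 118.7 and 672.6 (adjusted p = 0.023). FAP, fibroblast activation protein, was at least 7.67-fold lower in SUM159 (92.4 to 110.3 against 1047 to 1175), and CDH11, the mesenchymal OB-cadherin, at least 5.41-fold lower. THY1, the fibroblast surface protein CD90, was 7.23-fold lower and TAGLN, the actin-binding protein transgelin, 6.47-fold (adjusted p = 0.0475). These 4 are known as fibroblast or smooth muscle genes. PCOLCE lost its call without any array but the one labelled Foxq1 (adjusted p up to 0.0926), CDH11 without SUM159/LacZ (0.0571), THY1 without untransfected SUM159, HMLE/LacZ or the array labelled IRX5 (up to 0.0734), and TAGLN without any array but untransfected SUM159 (up to 0.141). Another TAGLN probe differed by -1.34 on the log2 scale.

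In the fit without the array labelled Foxq1, 6 mesenchymal members were called higher and 6 lower, all of them among the 31 tested over all 6 arrays. VIM was then 1.27 higher in SUM159 on the log2 scale (adjusted p = 0.0283). S100A4, a motility-associated calcium-binding protein, read 10550, 12290 and 2535 in SUM159 and 750.2, 619.9 and 2636 in HMLE, so that the array labelled Foxq1 overlapped SUM159/IRX5. Its adjusted p was 0.0419 with that array and 0.00917 without it. PDGFRA, a platelet-derived growth factor receptor, read 504.8 to 589.9 in SUM159 and 193.5, 190 and 570 in HMLE. Its relative PDGFRB read 380.9 to 426.8 against 155.3, 121.3 and 1268, and DCN, the small proteoglycan decorin, 1319, 2748 and 3029 against 662.5, 197.2 and 10810. In the last 2 the array labelled Foxq1 exceeded every SUM159 array.

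Collagen genes differed in both directions. Of 25 collagen and collagen-modifying genes on the array 23 were tested. In SUM159 4 were higher (17.4%) and 5 lower (21.7%), beside 4.52% and 6.80% of all genes tested. COL8A1, a short-chain collagen, read 12690, 5983 and 10500 in SUM159 and 1021, 351 and 725.4 in HMLE, 14.5-fold higher (adjusted p = 0.00162). COL6A3, a chain of microfibrillar collagen VI, was 9.16-fold higher, COL5A1, a regulator of fibril diameter, 8.33-fold and COL16A1 2.27-fold. Lower were the basement membrane chains COL4A1 (6.21-fold) and COL4A2 (3.64-fold) and the anchoring-fibril collagen COL7A1 (4.22-fold), while the related chains COL4A5 (0.50 on the log2 scale) and COL4A6 (0.37) were not called. Also lower was PLOD2, a lysyl hydroxylase that prepares collagen for cross-linking (4.0-fold, with another probe at -1.14 on the log2 scale). COL4A1 read 1033, 394.5 and 661.8 against 5225, 3518 and 3521, with no overlap. Not called were COL1A1 (-1.43 on the log2 scale, adjusted p = 0.331), COL1A2 (-1.94, adjusted p = 0.104), COL6A1 (-0.80) and COL6A2 (-0.30). The integrin list had 3 of 19 members lower (20.0% of the 15 tested, beside the same 6.80%) and none higher. Without the array labelled Foxq1, 6 were lower and 1 higher. FERMT1, the integrin activator kindlin 1 of epithelia, was 6.10-fold lower, ITGA2, a collagen receptor chain, 3.10-fold (adjusted p = 0.049) and ITGA3, a laminin receptor chain, 2.23-fold. Another ITGA3 probe differed by only -0.07. The calls of FERMT1 and ITGA2 were lost without any array but the one labelled Foxq1 (adjusted p up to 0.115 and 0.148), and that of PLOD2 without SUM159/LacZ, HMLE/LacZ or HMLE/Gcnt2 (up to 0.0822).

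Several proteases of the matrix and the plasminogen system were lower in SUM159. Of 29 members on the array 24 were tested, 11 (45.8%) were called lower and none higher, against 6.80% lower among all genes, and 6 of the 24 had a positive difference. The median log2 difference over the 29 was -0.24. MMP9, gelatinase B, read 93.3, 90.5 and 89.5 in SUM159 and 7894, 13840 and 723.9 in HMLE, at least 29.7-fold lower (adjusted p = 0.0091). PLAU, the urokinase plasminogen activator, read 369.5, 258.7 and 146.5 against 11240, 18890 and 5290, 43.1-fold lower (adjusted p = 0.000756). ADAM19, a membrane metalloprotease, was 30.3-fold lower and ADAM8, another of that family, at least 6.0-fold. All 4 were thus brighter in the immortalized epithelial line.

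Cancer-testis genes with a measurable level were brighter in SUM159. Of 29 cancer-testis antigens on the array, genes normally read in germ cells and placenta, 14 were tested and 12 called higher in SUM159 with none lower, against 4.52% higher among all genes. In 13 of the 14 the HMLE arrays lay wholly under the limit, so they passed through SUM159 alone and had to differ, and 12 of the 29 lay under the limit in all 6 arrays. The median log2 difference over the 29 was 0.48. PAGE5 read 4110, 9480 and 3434 in SUM159 and 107.3, 110.2 and 112.5 in HMLE, at least 35.4-fold higher (log2 difference 5.54 ± 0.37, SE, adjusted p = 0.000229). PAGE2 was at least 25.1-fold higher, at 2495, 7416 and 2574 against 97.1 to 104.2, and PAGE2B at least 21.6-fold. In these 3 genes SUM159/LacZ was the brightest array by more than 2-fold. XAGE2 was at least 48.7-fold higher, with 5918 to 8689 against 115.6 to 123.4. MAGEA6 read 1664, 1343 and 1438 and MAGEA12 1349, 1162 and 1104, at least 10.2- and 8.31-fold higher. SPANXD varied most among the SUM159 arrays, at 4988, 2832 and 694.5, and was at least 14.8-fold higher (adjusted p = 0.0054). Genes of the PAGE, XAGE, MAGE and SPANX families have near-identical copies, so a probe may read more than the member named. Without the array labelled Foxq1 the count was again 12.

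A run of embryonic globin genes was also brighter in SUM159. HBE1, the embryonic epsilon globin, read 1402, 2559 and 2130 in SUM159 and 98.8, 111.6 and 99.3 in HMLE, at least 13.6-fold higher (adjusted p = 0.000131). Its neighbours by RefSeq order were then looked up. HBG2 and HBG1, the fetal gamma globins, which are near-identical, read 316.3, 448 and 329.5 and 288.5, 392.8 and 346.6 in SUM159, and 95.8 to 98.3 and 136.7 to 156.8 in HMLE. OR51B4, an olfactory receptor gene on the other side of HBE1, read 304.1, 247.1 and 336.9 against at most 113.6. All 4 were called higher, with adjusted p between 0.000131 and 0.00286, while the adult globins HBB and HBD lay under the limit in all 6 arrays, as did OR51B2 and OR51B6.

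Of 22 homeobox genes on the array 14 were tested, with 4 higher in SUM159 (28.6%) and 1 lower (7.14%). Among all genes tested 4.52% were higher and 6.80% lower, so the share lower was near that of all genes. IRX2, an Iroquois factor, read 30580, 37800 and 38800 in SUM159 and 2320, 2842 and 2200 in HMLE, 14.6-fold higher (log2 difference 3.87 ± 0.17, SE, adjusted p = 5.45e-05). Its divergent transcript IRX2-DT, looked up after IRX2 was seen, read 673.7, 1605 and 1414 in SUM159 and 117.3 to 120.5 in HMLE. IRX4, next in the same gene cluster, went the other way, at 129.6, 153.7 and 121.9 in SUM159 and 1968, 2493 and 557.3 in HMLE (10.4-fold lower, adjusted p = 0.00587). IRX1, on the far side, read 185.8 to 195.4 against 160.5 to 314.5 and was not called (adjusted p = 0.734). IRX5, which belongs to another cluster, was 1.79-fold lower in SUM159 (adjusted p = 0.0293) and so missed the fold threshold. Without the array labelled Foxq1 IRX5 was called lower (-1.06 on the log2 scale, adjusted p = 0.00158). In SUM1315 and MDA-MB231 the IRX2 probe read 98.4 and 109, under the limit. MSX1, a muscle segment homeobox factor, was 7.35-fold higher, DLX1, a distal-less factor, 3.09-fold (a log2 difference of 0.65 by another probe) and EMX2 at least 2.36-fold (adjusted p = 0.0521 without HMLE/LacZ). Of 29 HOX genes on the array 16 were tested, 3 were lower (18.8%) and none higher. HOXB2 was at least 5.97-fold lower (97.6 to 108 against 841.7 to 874.6) and HOXB7 3.98-fold. HOXA2 was 2.18-fold lower, or 1.99-fold with SUM159 arrays under the limit set at it. The HOXA2 call was lost without any array but HMLE/Gcnt2, with adjusted p up to 0.0948. The median log2 difference over the 29 was -0.01.

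Cholesterol synthesis genes were lower in SUM159 by smaller folds. Of 25 members on the array 24 were tested, 11 (45.8%) were called lower and none higher, beside 6.80% lower among all genes tested. The median log2 difference over the 25 was -0.86. SQLE, the rate-limiting squalene epoxidase, read 2035, 2544 and 1694 in SUM159 and 9342, 13740 and 7311 in HMLE, 4.75-fold lower (log2 difference -2.25 ± 0.27, SE, adjusted p = 0.00197). HMGCS1, the HMG-CoA synthase at the head of the pathway, was 3.82-fold lower. MSMO1, a sterol demethylase, was 3.73-fold lower, at 1186, 1903 and 876.6 against 5534, 4688 and 3955, and another of its probes differed by -0.72. INSIG1, the sterol-induced brake on the pathway, was 2.97-fold lower. MVK, mevalonate kinase, read 203.3, 281.6 and 166.4 against 355.9, 406.1 and 578.9, 2.06-fold lower (adjusted p = 0.0356), and it lost its call without any array but SUM159/LacZ (adjusted p up to 0.126). INSIG1 lost its call without the array labelled IRX5 or HMLE/LacZ (up to 0.061). Without the array labelled Foxq1, 8 members were called lower, and the LacZ arrays taken alone put 6 at least 2-fold lower. Leaving out the array labelled IRX5, or HMLE/LacZ, left 4 members called and leaving out HMLE/Gcnt2 left 6.

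Genes of sterol synthesis are switched on by SREBP factors, which act together with NF-Y, a factor that binds the CCAAT box. Promoters of MVK and MSMO1 are shown because their windows hold several such boxes. The runs are again the 250 bases before an annotated start, with CCAAT or its reverse complement ATTGG in capitals. Where there are several starts, the one with the most boxes is shown.
MVK promoter, chr12:109573544-109573793, plus strand: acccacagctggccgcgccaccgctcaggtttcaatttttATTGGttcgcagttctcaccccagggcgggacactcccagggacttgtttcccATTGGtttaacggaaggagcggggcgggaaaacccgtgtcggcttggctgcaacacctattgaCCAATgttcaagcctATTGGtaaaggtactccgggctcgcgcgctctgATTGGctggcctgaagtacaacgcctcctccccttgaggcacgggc
MSMO1 promoter, chr4:165327419-165327668, plus strand: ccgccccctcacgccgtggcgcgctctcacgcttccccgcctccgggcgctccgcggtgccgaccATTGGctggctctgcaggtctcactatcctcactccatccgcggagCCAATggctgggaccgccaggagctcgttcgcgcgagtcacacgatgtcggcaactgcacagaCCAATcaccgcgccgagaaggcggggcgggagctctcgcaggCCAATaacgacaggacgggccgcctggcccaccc
The MVK window holds 5 boxes and the MSMO1 window 4. Of the 11 genes called lower 10 have an entry, and all 10 hold at least 1 box in a window, as do 37.0% of all genes with an entry. By annotated start the shares were 11 of 14 (78.6%) and 32.0%. The genes with an entry again include genes that are not on the array. These shares say which letters are present, and neither SREBP nor NF-Y binding was measured.

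Of 32 inflammatory genes on the array 29 were tested, 9 were lower in SUM159 (31.0%) and 2 higher (6.90%). Among all genes tested 6.80% were lower and 4.52% higher, so the share higher was near that of all genes. IL1B, interleukin 1 beta, read 198.1, 223.6 and 122.7 in SUM159 and 2954, 4550 and 2171 in HMLE, 17.5-fold lower (adjusted p = 0.0005). CXCL1, a neutrophil chemokine, was 16.9-fold lower, PTGS2, the inducible prostaglandin synthase COX-2, 7.85-fold and IL1A, interleukin 1 alpha, 7.32-fold. IL32, a cytokine of lymphoid and epithelial cells, was 8.98-fold higher, at 4797, 3531 and 6107 against 647.1, 777.9 and 283.6. TNFAIP2, a tumour necrosis factor-induced gene, was 2.37-fold higher. IL1A lost its call without any array but the one labelled Foxq1 (adjusted p up to 0.0742). IL6 was not called and varied within SUM159 from 199.8 to 1858 (adjusted p = 0.968). In the interferon list 9 of 36 members on the array were lower (29.0% of the 31 tested) and 2 higher (6.45%, again near all genes). Without the array labelled Foxq1, 8 were lower and 5 higher. MX1, an antiviral GTPase, read 196, 269.1 and 230.4 against 2283, 788.2 and 4615 (8.81-fold lower), EPSTI1 was 7.34-fold lower, SAMD9 3.79-fold and IRF9, which joins the STAT complex of the interferon response, 3.60-fold. BST2, the membrane tether tetherin, ran against its list at 7.43-fold higher, as did IFITM1, a restriction factor of viral entry, at 4.73-fold. IRF9 lost its call without any SUM159 array or HMLE/LacZ (adjusted p up to 0.0938), and IFITM1 without SUM159/LacZ, the array labelled IRX5 or HMLE/LacZ (up to 0.122). Of 20 antigen presentation genes 16 were tested and none was higher (2 without the array labelled Foxq1). The 1 lower (6.25%, near the share of all genes) was HLA-DPA1 (at least 1.95-fold). Its call was lost without SUM159/LacZ or the array labelled IRX5 (adjusted p up to 0.069).

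Several growth factor genes were lower in SUM159. Of 32 EGFR ligands and ERK targets on the array 29 were tested, 8 were lower (27.6%) and none higher, beside 6.80% lower among all genes. TGFA, a ligand of the epidermal growth factor receptor, read 123.6, 134.9 and 200.5 in SUM159 and 2034, 3319 and 705 in HMLE, 11.3-fold lower. DUSP6, the phosphatase induced by ERK, was 5.36-fold lower, PHLDA1, another ERK-induced gene, 5.31-fold and HMGA2, a chromatin protein, at least 3.87-fold. Other probes of DUSP6 and HMGA2 differed by -1.60 and -0.93 on the log2 scale. EGFR itself was not called (511.5 to 910.2 against 769.8 to 1254, adjusted p = 0.241). Among 29 receptor tyrosine kinases 5 were lower and none higher: DDR1, a collagen receptor (8.01-fold), EPHA1 (at least 4.54-fold), FGFR3 (6.91-fold), MST1R (at least 2.79-fold) and ERBB3 (at least 3.22-fold). Other probes of DDR1, FGFR3 and ERBB3 differed by only -0.57, -0.02 and -0.79. Leaving out the array labelled Foxq1, 3 members of the kinase list were called higher. In the insulin-like growth factor axis 3 of 16 were lower, among them the binding protein IGFBP3, which read 168.7 and 129.1 in 2 SUM159 arrays and 759.2 in the array labelled IRX5, against 1124 to 2784. IGF2BP3, an mRNA-binding protein, was 7.18-fold lower and IRS1, the insulin receptor substrate, 2.71-fold. With 1 array left out the calls of ERBB3, MST1R, IGFBP3 and IRS1 were lost, all of them without SUM159/LacZ or HMLE/LacZ, with adjusted p up to 0.106, 0.0614, 0.0912 and 0.109.

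In the TGF-beta and BMP list 1 of 37 members on the array was higher (3.57% of the 28 tested) and 3 were lower (10.7%), beside 4.52% and 6.80% of all genes. FST, follistatin, which binds activin, read 346.2, 324.3 and 397.5 in SUM159 and 17980, 24540 and 2670 in HMLE, 29.8-fold lower (adjusted p = 0.0056). PMEPA1, a TGF-beta target, was 4.94-fold lower and BMP2 2.96-fold, while TGFBR3, the co-receptor betaglycan, was 5.78-fold higher. In the WNT list 2 of 36 were higher (7.14% of the 28 tested) and 4 lower (14.3%), or 3 and 5 without the array labelled Foxq1. SFRP1, a secreted WNT antagonist, read 96.6 to 109.8 against 1501, 1588 and 762.9, at least 8.44-fold lower, WNT5B was 4.53-fold lower, WNT7A at least 3.16-fold and the receptor FZD6 2.86-fold. NKD2, an inhibitor of Dishevelled, was 8.12-fold higher, and SUM159/LacZ, at 3785, lay far above the 523.7 and 515.4 of the other 2 arrays. Of 27 targets of YAP and SRF 5 were lower and 1 higher, with 25 tested, and 4 were lower and 3 higher without that array. F3, tissue factor, was 8.44-fold lower, FHL2, a LIM-domain protein, 3.76-fold and NT5E, the ectonucleotidase CD73, 3.52-fold, while CCN5, a matricellular protein, was 4.38-fold higher. BMP2 and F3 lost their calls without SUM159/LacZ, HMLE/LacZ or the array labelled IRX5 (adjusted p up to 0.0811 and 0.0873), BMP2 also without untransfected SUM159 and F3 without HMLE/Gcnt2, and NKD2 without HMLE/LacZ or HMLE/Gcnt2 (up to 0.0997).

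Cell division genes hardly separated the lines. None of 36 DNA replication genes tested was called by limma, while 7 had an unadjusted p under 0.05, and the median log2 difference of the 38 on the array was -0.26. Of 37 mitosis genes CENPF, a kinetochore protein, was 2.54-fold higher and AURKB, the Aurora B kinase, 2.85-fold lower, and each lost its call without SUM159/LacZ, HMLE/LacZ or HMLE/Gcnt2 (adjusted p up to 0.0878 and 0.104), CENPF also without untransfected SUM159 and AURKB without the array labelled Foxq1. Among 25 cell cycle inhibitors and p53 targets on the array, by contrast, 6 of 22 tested (27.3%) were lower and none higher. The share lower among all genes tested was 6.80%. CDKN2A, which encodes the inhibitors p16 and ARF, read 117.8, 126.2 and 111.1 in SUM159 and 874.3, 1015 and 1430 in HMLE, at least 7.49-fold lower (log2 difference -3.20 ± 0.23, SE, adjusted p = 0.000298). CDKN2B, which encodes p15, read 198.7, 215.2 and 178.9 against 634.9, 658.9 and 576.7, 3.16-fold lower. MTAP, the enzyme of methionine salvage that lies beside CDKN2A by RefSeq order and was looked up after CDKN2A was seen, read 120, 96.9 and 113.7 against 1616, 1789 and 1386, at least 11-fold lower (adjusted p = 6.25e-05). Beyond them IFNE read 98.2 to 106.1 in SUM159 and 148.6 to 173.9 in HMLE, and DMRTA1 lay under the limit in all 6 arrays. In SUM1315 and MDA-MB231 the MTAP probe read 100.7 and 100.8 and the CDKN2A probe 94.9 and 128.1, also under the limit. CDKN1A, which encodes p21, was 4.31-fold lower and TP53I3 5.64-fold, but other probes of these 2 genes differed by only -0.26 and -0.28. PHLDA3, a p53 target, was 3.04-fold lower. TP53INP1 was at least 1.56-fold lower (adjusted p = 0.0113). It lost its call without SUM159/LacZ, the array labelled IRX5 or the array labelled Foxq1 (adjusted p up to 0.0559).

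The markers used to define stem-like breast cancer cells did not follow one pattern. Of 16 on the array 11 were tested, 6 (54.5%) were lower in SUM159 and none higher, beside 6.80% lower among all genes tested. CD44, the hyaluronan receptor, read 8245, 7184 and 5989 in SUM159 and 20010, 15920 and 15920 in HMLE, 2.43-fold lower (adjusted p = 0.00349). Another CD44 probe differed by -1.02 on the log2 scale, and the call was lost with the mean of all probes or the probe nearest to 0. CD24, a surface protein of differentiated epithelium, read 1379, 1286 and 137 against 21730, 25440 and 6562, 24.6-fold lower (adjusted p = 0.0153), with the array labelled IRX5 alone under the limit. Without HMLE/LacZ or HMLE/Gcnt2 its call was lost (adjusted p 0.0619 and 0.0526). ALDH1A3, the main aldehyde dehydrogenase of the Aldefluor assay, was 33.1-fold lower, at 295.4, 150.3 and 141.2 against 9989, 15010 and 1521. ITGA6, the integrin chain CD49f, was 4.09-fold lower, with another probe at -1.36 on the log2 scale. CD44 and CD24 were thus both lower in SUM159, CD24 by more. In the luminal list 4 of 25 members were lower and 1 higher, with 16 tested, and 5 lower and 2 higher without the array labelled Foxq1: MLPH, a melanosome-transport adaptor (6.70-fold), and GRB7, an ERBB2 adaptor (at least 3.34-fold), were lower beside KRT8 and ERBB3, while BCL2, the inhibitor of cell death, was at least 3.22-fold higher. MLPH lost its call without any SUM159 array or HMLE/LacZ (adjusted p up to 0.101), and BCL2 without SUM159/LacZ, HMLE/LacZ or HMLE/Gcnt2 (up to 0.0769).

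**Figure D4:**
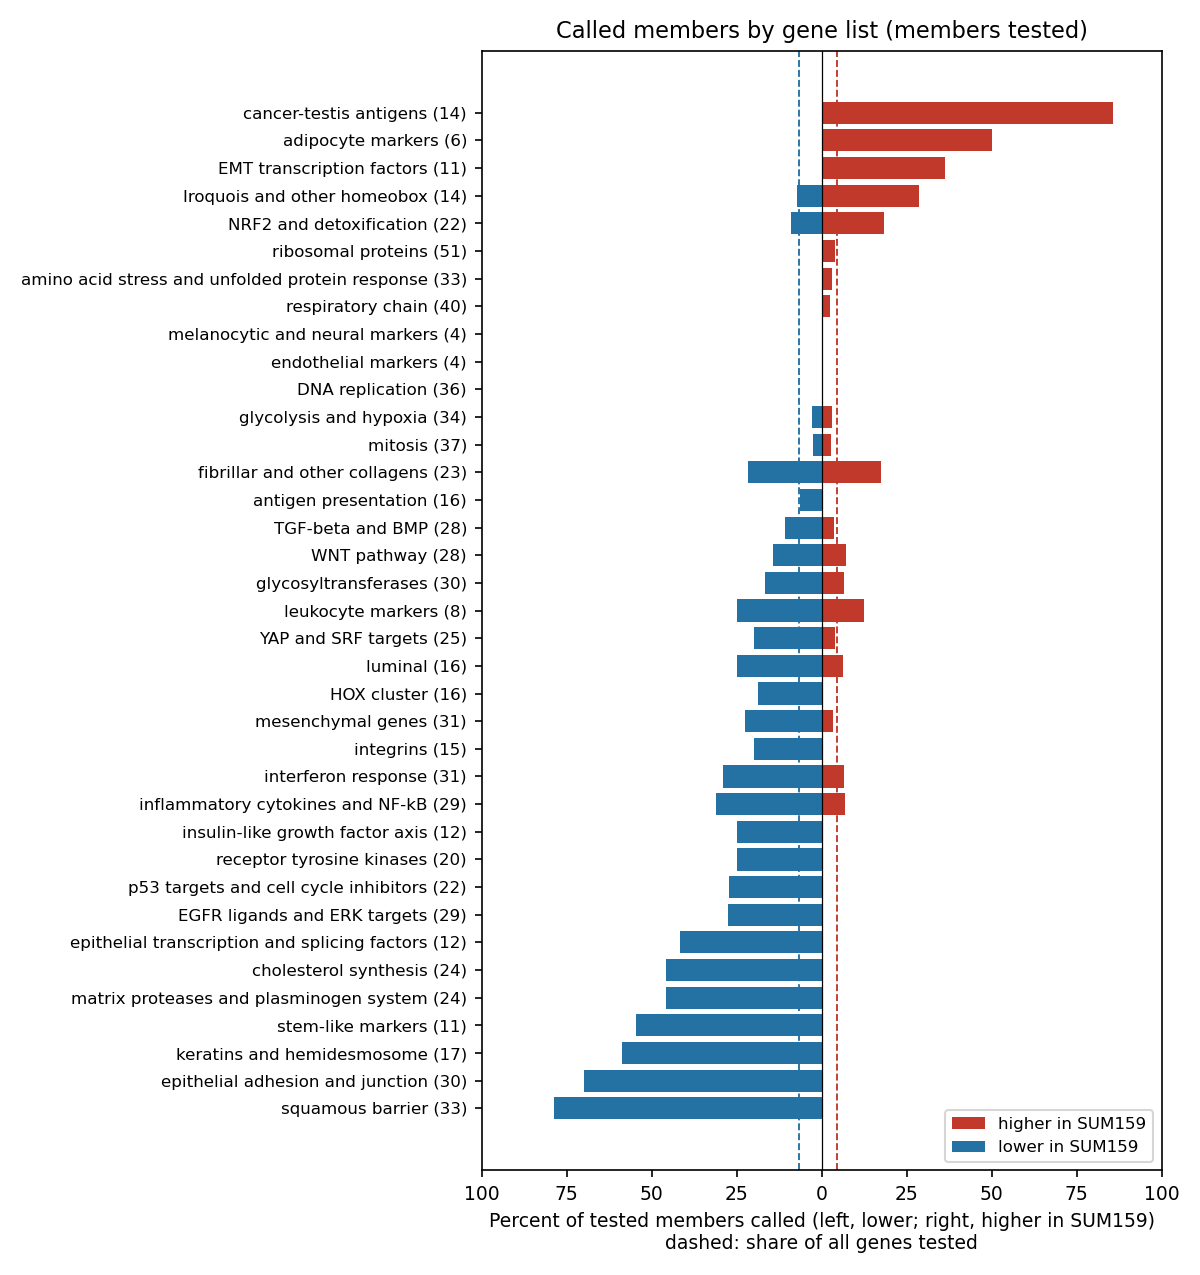
Share of tested members called lower (blue, left) or higher (red, right) in SUM159 for 37 gene lists, with the number tested in brackets and the shares of all genes tested as dashed lines (6.80% lower, 4.52% higher). Squamous barrier (26 of 33 lower) and cancer-testis antigens (12 of 14 higher) stand at the ends, and lists with many members that lay under the limit in one line had to differ.

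Few genes of glycolysis and hypoxia, stress responses, ribosomes and the respiratory chain were called, beside 4.52% higher and 6.80% lower among all genes tested. Of 34 glycolysis and hypoxia genes tested 1 was higher, HIF1A, the hypoxia-inducible factor (3.43-fold, with another probe at 0.85 on the log2 scale), and 1 lower, NDRG1, a hypoxia-induced gene (4.32-fold). With the array labelled Foxq1 left out, 3 were higher and 3 lower. Among 33 genes of amino acid stress and the unfolded protein response, ASNS, asparagine synthetase, was the 1 call (3077, 12260 and 16360 against 1629, 2199 and 2584, adjusted p = 0.0497), and the list's median log2 difference was 0.39. This list had 2 calls without the array labelled Foxq1. RPL13 and RPL22 were the 2 calls among 51 ribosomal proteins (2.40- and 2.37-fold higher), and ATP5MC1, an ATP synthase subunit, the 1 call among 40 respiratory chain genes tested. In the NRF2 list the shares were larger, with 4 of 27 higher (18.2% of the 22 tested) and 2 lower (9.09%). Without the array labelled Foxq1, 7 were higher and 2 lower. TXNRD1, thioredoxin reductase, read 9471, 7542 and 11120 against 2160, 3043 and 4717 (2.95-fold higher), ABCC2, an export pump, was at least 2.84-fold higher and PIR 2.10-fold. AKR1C2, an aldo-keto reductase with near-identical relatives, was 12.8-fold higher, while GPX2 and AKR1B10 were at least 2.37- and 1.42-fold lower. Of 39 glycosyltransferases 30 were tested, 2 were higher (6.67%) and 5 lower (16.7%), or 3 and 9 without the array labelled Foxq1. ST3GAL6, a sialyltransferase, was 4.50-fold higher. GCNT2, read from its brightest probe, was 3.67-fold higher, at 621, 388.1 and 495.5 against 122.5, 128.5 and 153.6, and this probe, unlike the one above, was not raised in HMLE/Gcnt2. The mean of all GCNT2 probes differed by -0.006 on the log2 scale, so the direction rests on the probe chosen. LFNG, a Notch-modifying enzyme, was 5.16-fold lower, FUT3, a Lewis fucosyltransferase, at least 2.68-fold, B4GALT4 2.80-fold and ST3GAL5 2.61-fold, with another ST3GAL5 probe at -0.78 on the log2 scale. Without SUM159/LacZ the calls of HIF1A, ASNS, ATP5MC1, PIR, AKR1C2, GPX2, AKR1B10, LFNG, FUT3 and B4GALT4 were lost, and without the array labelled IRX5 that of TXNRD1 (adjusted p = 0.0549). Over all single arrays left out, the adjusted p reached 0.17 for ASNS, 0.146 for FUT3, 0.106 for AKR1C2 and 0.0984 for PIR. Another probe put the log2 difference at 1.02 for RPL13 and at 0.97 for PIR.

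Most defining markers of other cell types were at or near background in both lines, with PECAM1 and CD14 as exceptions. PTPRC and CD3D of leukocytes, CDH5 and VWF of endothelium, ADIPOQ and PLIN1 of adipocytes, and PMEL, MLANA and GFAP of melanocytes and glia read between 85.5 and 146.9 in all 6 arrays. PECAM1 read 188.6 to 281.8 in all 6, and CD14 179.2 to 1574 with overlap. Among 21 leukocyte genes on the array LCP1, the actin bundler plastin 2, was 4.35-fold higher in SUM159, and CORO1A and CSF1R were at least 3.84- and 2.17-fold lower. Of 9 adipocyte genes 6 were tested and 3 were called higher, beside 4.52% of all genes: CIDEC, a lipid droplet protein, was at least 3.70-fold higher, PPARG, the adipogenic nuclear receptor, 3.94-fold and CFD 3.75-fold. LCP1, CORO1A and PPARG lost their calls without SUM159/LacZ or HMLE/LacZ (adjusted p up to 0.0854, 0.0686 and 0.0771). None of the 14 endothelial or 15 melanocytic and neural genes on the array was called by limma. Of the 4 tested in each list, 1 and 2 had an unadjusted p under 0.05.

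In part of the genes that set SUM159 apart from HMLE/LacZ and HMLE/Gcnt2, the array labelled Foxq1 lay nearer to SUM159. Genes were picked by those 2 HMLE arrays, which favours this outcome, and no other HMLE array was left out for comparison. Over all genes tested the array labelled Foxq1 lay about as far from SUM159 as HMLE/Gcnt2 did, and further than HMLE/LacZ. It lay at least 2-fold from untransfected SUM159, SUM159/LacZ and SUM159/IRX5 in 1675, 1965 and 2280 genes. Those counts were 1410, 1678 and 1963 for HMLE/LacZ and 1664, 1975 and 2245 for HMLE/Gcnt2. Every SUM159 array was at least 2-fold above both HMLE/LacZ and HMLE/Gcnt2 in 365 genes (3.43% of those tested), and the array labelled Foxq1 lay nearer to the SUM159 mean in 133 of them, inside or above the SUM159 range in 42. Every SUM159 array was at least 2-fold below both in 544 genes (5.11%), and the array labelled Foxq1 lay nearer to SUM159 in 190, inside or below its range in 22. These counts are a description of 1 array, with no test. Among the genes higher in SUM159, AKR1C2 read 2952, 10680 and 19260 in SUM159, 366.1 and 356.3 in the first 2 HMLE arrays and 2225 in the array labelled Foxq1. RIPOR2, an inhibitor of the small GTPase RhoA, read 1548 to 3987, then 139.2, 114.6 and 684.6. ENPP2, the enzyme autotaxin that makes lysophosphatidic acid, read 1989 to 3622, then 199.1, 117.2 and 1009. TSC22D3, a glucocorticoid-induced leucine zipper, read 2271, 16820 and 13680, then 719.7, 415.7 and 2237. GNG11, a G protein gamma subunit, read 2526, 4396 and 4524, then 408.3, 194 and 2850. In GNG11 the array labelled Foxq1 lay within the SUM159 range, so the gene was not called over all 6 arrays (adjusted p = 0.0821). RIPOR2, ENPP2 and TSC22D3 lost their calls without SUM159/LacZ, HMLE/LacZ or the array labelled IRX5 (adjusted p up to 0.0633, 0.0903 and 0.147).

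Among the genes lower in SUM159, the 6 with the largest difference where that array lay nearer to SUM159 were MMP9, FST, MAL2, KLK7, SERPINB7 and CLDN7. SERPINB7, a serpin of skin and kidney, read 101.6, 127.3 and 102.7 in SUM159, 4133 and 6233 in HMLE/LacZ and HMLE/Gcnt2 and 641.2 in the array labelled Foxq1. In all 6 genes that array stayed above every SUM159 array, so each was still called over the 6 arrays, with adjusted p from 0.0056 for FST to 0.0251 for KLK7. The basal keratins KRT5 and KRT14 read 8303 and 9157 in the array labelled Foxq1, nearer to the other HMLE arrays than to SUM159.

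**Figure D5:**
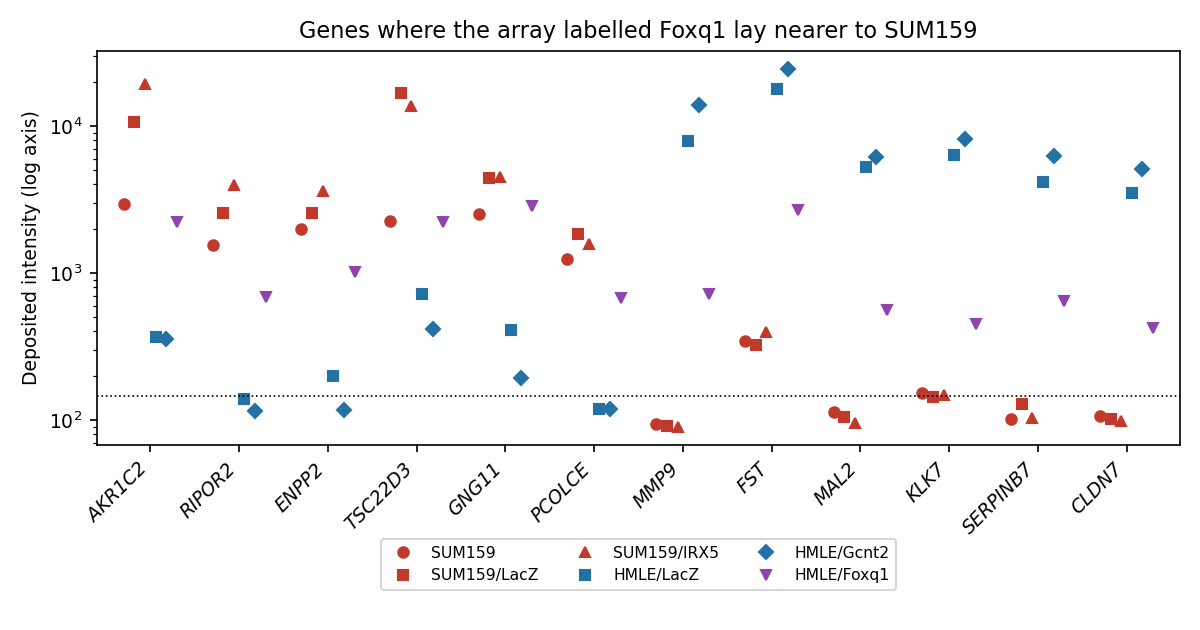
Deposited intensity (log axis) of 12 genes in each array, with the 3 SUM159 arrays in red, HMLE/LacZ and HMLE/Gcnt2 in blue, the array labelled Foxq1 in purple and the detection limit as a dotted line. In the first 6 genes SUM159 lay above HMLE/LacZ and HMLE/Gcnt2 and in the last 6 below, and the purple point lies between or, for GNG11, inside the SUM159 range.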

How the data were processed

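Of 8 Illumina bead arrays, each with total RNA of a breast cell line, 6 (3 SUM159, 3 HMLE) were compared. The deposited values are intensity on a linear scale (73.3 to 56056.2), and the authors' sorted values differ between arrays by at most 1.27% (coefficient of variation), so they were already quantile-normalized. Per the submitters' processing notes, the tools were GenomeStudio, lumi 1.14 and R 2.11.1, with no role given. Nothing states whether background was corrected. A table of unnormalized values was not used, since no label ties its 16 value columns to samples. Of 24526 probes, 21834 have 1 symbol, none several and 2692 none, and 21813 symbols were updated through RefSeq (GRCh38.p14), giving 16922 genes, 3195 with more than 1 probe.

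Intensities were put on a log2 scale. The detection limit (144.6) is the background mode (110.5) plus its mirrored spread at a tail of 0.01. limma 3.58.1 in R 4.3.3 (lmFit, eBayes with an intensity trend) compared the lines. Figures and tables used Python with pandas and matplotlib. The calculations were tested on simulated data. With 3 arrays a line the number of arrays limits the precision.

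Named genes were the 15 called genes with the largest difference in each direction. Up to 4 called members per direction in each of 37 lists, and well-known markers, were named as well. Where the array labelled Foxq1 lay nearer to SUM159 by the rule given, the 6 genes with the largest difference from HMLE/LacZ and HMLE/Gcnt2 were named in each direction. Open reading frame and LOC names were left out, and genes whose probes disagree in sign were left out of the sets of 15 and 6. The members, lists and the rule for that array were chosen with earlier results of these data known. The alternatives tried were normexp background correction, another detection limit, no filter, other choices of probe, cyclic loess, other variance models, all 8 arrays in the fit, and leaving out arrays.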

Additional observations from a re-analysis of the deposited data

How the results depend on the processing

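Counts of genes called stayed within 1.5 times their values under normexp, the lower detection limit, no filter, other probes, cyclic loess, other variance models and all 8 arrays in the fit. Leaving out 1 array at a time, with genes then tested where 2 of the 5 arrays passed the limit, gave 289 to 694 genes higher and 434 to 848 lower, and the lowest counts came without SUM159/LacZ. The LacZ arrays alone put 822 genes at least 2-fold higher and 917 lower, with no test. Per list, leaving out 1 array gave 11 to 26 junction genes lower, 11 to 32 squamous barrier genes and 4 to 9 cholesterol synthesis genes. Of the latter, 7 were lower without the arrays labelled Foxq1 and IRX5 and 6 in the LacZ pair. The cause was not tested.

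Of 179 named genes called, 103 kept the call in every alternative that tested them. Signs were reversed in a few alternatives, with the cause not tested. GCNT2 stood at -0.006 with the mean of all probes, which includes the probe raised in HMLE/Gcnt2. TFAP2A stood at 0.12 with the probe nearest to 0, and IL6 at -0.001 with cyclic loess. Without the arrays labelled Foxq1 and IRX5, IRX1 stood at 0.17 and KRT18 at -0.86. With 1 array left out, DCN ranged from -0.27 to 2.62, IL6 from -0.84 to 0.77, IRX1 from -0.33 to 0.16, KRT18 from -0.68 to 0.75 and PDGFRB from -0.16 to 1.53, with the signs of DCN and PDGFRB turned without HMLE/Gcnt2, of IRX1 and KRT18 without the array labelled Foxq1, and of IL6 without HMLE/Gcnt2 or SUM159/LacZ. None of these 5 was called. No paired analysis was possible because the labels number no replicates. Signals near background limit folds of dim genes.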
